A study of Drosophila melanogaster with 4 samples.

Results

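The genes described here were the chemoreceptors of Drosophila melanogaster, the odorant receptors (Or), gustatory receptors (Gr) and ionotropic receptors (Ir), as read by arrays hybridised with testis RNA. A gene was a member when a probe set assigned to it alone carried a symbol of the form Or, Gr or Ir followed by a number and a letter, and each gene was represented by its probe set with the highest mean over the 4 arrays. This gave 165 genes, 56 Or, 56 Gr and 53 Ir, among 11983 genes with a single-gene probe set. Another 20 of the 185 genes of that form in the RefSeq gene table had no probe set of their own.

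The study asked what testes lose when nsr (CG3875), a young duplicate of the RNA-binding gene kep1, is deleted. Testes of nsr null mutant males and of wild-type (WT) males, both 0 to 2 days old and both dissected free of the seminal vesicles, were hybridised to the Affymetrix Drosophila Genome 2.0 array, with 2 arrays per genotype. The null allele was made by gene targeting and removes the gene from shortly behind its transcription start into its 3′ untranslated region, and the WT stock was a recombinant line of normal genotype that came out of the same targeting. Each genotype had separate RNA extractions, but whether these came from separate groups of flies is not stated, so the p-values measure the spread between arrays only.

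Odorant and gustatory receptors are related membrane proteins that open as ion channels when a volatile or a tastant binds, and most odorant receptors work only beside the shared co-receptor Orco. Ionotropic receptors descend from glutamate-gated channels and pair with broadly used co-receptors to sense acids, amines, temperature and humidity. These families are known mainly from sensory neurons of the antenna, the mouthparts and the legs, and transcripts of single receptors have also been found in tissues outside the head.

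The deleted gene was read first. The nsr probe set stood at 23.2 and 27.6 in the mutant arrays, against 549 and 554 in the WT arrays, in the linear intensity units of the deposited table. The log2 fold change, mutant over WT, of intensity + 16 was -3.78 ± 0.10 (SE, limma, adjusted p = 0.00837), and it was the single call among 18769 probe sets (0.00533%) at an adjusted p under 0.05. The call was lost with a pseudocount of 1 (adjusted p = 0.346) and when either mutant array or either WT array was left out (adjusted p between 0.0945 and 0.981), while the log2 fold change stayed between -4.39 and -3.70 under those settings. Over all probe sets the median reading was 12.1 and 14.1 for the mutant, against 13.5 and 15.7 for WT. All 14 germline markers with a probe set were above background on every array. Of the accessory gland markers, 2 of 11 were, Acp95EF and Acp36DE, and 1 of 4 somatic testis markers was, eya.

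Background was set by 70 probe sets for sequences that no fly RNA should match, and a gene was called above background on an array when its intensity exceeded the highest of these. This limit came to 8.80 and 5.88 for the mutant, against 8.92 and 8.66 for WT. Another 48 control probe sets for foreign sequences were not used for it. Their highest readings were 20.3 and 19.1 for the mutant, against 14.5 and 16.0 for WT. Of the 165 chemoreceptor genes, 8 (4.85%) were above the limit on all 4 arrays, while 8212 of all 11983 genes (68.5%) were. The 8 were Or56a, Or67a, Gr28a, Ir40a, Ir41a, Ir76a, Ir85a and Ir93a. By family this was 2 of 56 Or genes (3.57%), 1 of 56 Gr genes (1.79%) and 5 of 53 Ir genes (9.43%). The other members held 110 genes above the limit on 0 arrays, 30 on 1 array, 7 on 2 arrays and 10 on 3 arrays. Most chemoreceptor probe sets therefore gave a reading that could not be told from that of the negative controls, and for such genes only the limit is known. The 8 genes above it read between 10.4 and 48.9. The probe set of the deleted gene nsr was also above the limit on all 4 arrays, at 23.2 and 27.6 in the mutant arrays. The deletion leaves both ends of the gene, the place of the nsr probes was not checked, and the source of that reading was not tested. Passing the limit was therefore not taken by itself as evidence of transcript from the named gene.

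Most partial readings came from the second mutant array, whose limit was the lowest of the 4. That array had 48 members above its limit, against 12 on the first mutant array, and the WT arrays had 18 and 28. Of the 30 members above the limit on a single array, 25 were above it on the second mutant array alone. No member was above the limit on both arrays of one genotype and on neither array of the other. The same count was not made over all genes, so nothing is read from it.

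**Figure D1:**
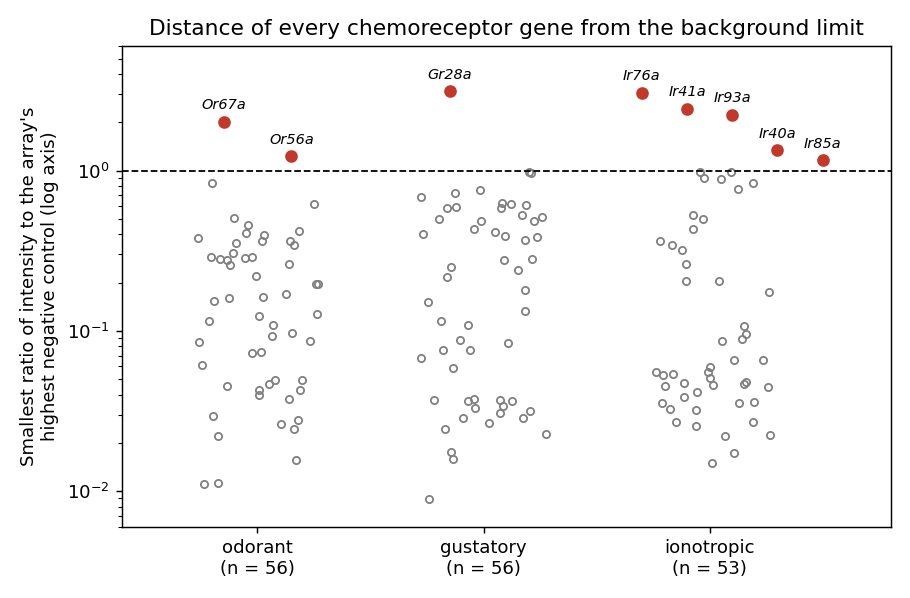
Every chemoreceptor gene by family, placed by its smallest ratio of intensity to the highest negative control of the same array over the 4 arrays (log axis); red points are the genes above the limit on all 4 arrays and the dashed line is a ratio of 1. The 8 red points lie between 1.16 (Ir85a) and 3.12 (Gr28a), and Ir100a, Ir21a and Gr32a lie just under the line.

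The genes next to the limit show how narrow its margin was. Just inside lay Ir85a with a smallest ratio of 1.16, Or56a with 1.23 and Ir40a with 1.34. Just outside lay Ir100a with 0.986, Ir21a with 0.976 and Gr32a with 0.975, each above the limit on 3 arrays. With the limit doubled, 5 of the 8 genes remained (Or67a, Gr28a, Ir41a, Ir76a and Ir93a), and with the 95th percentile of the negative controls as the limit 24 members passed.

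Of the odorant receptors, Or56a encodes the receptor of antennal neurons tuned to geosmin, an earthy volatile that flies avoid. Its intensity was 11.05 and 17.4 in the mutant arrays, against 10.9 and 17.5 in the WT arrays. The 2 genotypes overlapped almost completely, and the higher reading of each came from its second array. Its log2 fold change was 0.00 ± 0.17 (SE, limma, adjusted p = 0.9997). Or67a, an antennal odorant receptor, had intensities of 21.8 and 23.6 in the mutant arrays and 18.1 and 23.0 in the WT arrays. The genotypes overlapped here too, with a log2 fold change of 0.09 ± 0.11 (SE, limma, adjusted p = 0.917). Orco, the odorant co-receptor, whose symbol lies outside the naming pattern, read 7.002 and 8.81 in the mutant arrays and 7.68 and 8.54 in the WT arrays. It passed the limit on the second mutant array alone, so by this limit Orco was not above background in either genotype as a whole. The 95th percentile of the negative controls was 5.28 and 4.68 for the mutant, against 4.27 and 5.35 for WT. Orco exceeded that lower limit on all 4 arrays.

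Gr28a was the gustatory receptor above background on all arrays. Receptors of the Gr28 cluster are expressed widely beyond taste organs, and in larvae they mediate the taste of ribonucleosides. Gr28a stood at 27.5 and 32.6 in the mutant arrays, against 36.6 and 48.9 in the WT arrays. Both mutant arrays were below both WT arrays, and the means were 30.03 ± 3.598 in mutant and 42.8 ± 8.67 in WT arrays (SD, n = 2 each), a ratio of 0.702. The log2 fold change of -0.35 ± 0.14 (SE, limma, 95% interval -0.72 to 0.02) did not pass the test (adjusted p = 0.707). Fewer cells of a type and less RNA per cell cannot be told apart in these whole-organ samples.

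Among the neuron markers, 3 of 11 were above the limit on all 4 arrays, and the summed intensity of the list ran from 97.5 to 120.0 in the mutant arrays and from 142 to 144 in the WT arrays. Those 3 were the synaptic genes nSyb, cpx and brp, while the defining neuronal genes elav, Syn and ChAT were above it on 0 arrays. The synaptic vesicle gene nSyb read 41.4 and 51.1 in the mutant arrays and 79.5 and 73.9 in the WT arrays, both mutant arrays lower, without passing the test (limma, adjusted p = 0.690). Without nSyb, a choice made after its values were seen, the neuronal sum was 56.1 and 68.9 in the mutant arrays and 62.6 and 70.1 in the WT arrays, which overlapped, so nSyb alone set the gap. The synaptic genes cpx and brp overlapped between the genotypes. The 4 glial markers, 3 of them above the limit on all arrays, summed to between 222 and 235 in the mutant arrays and between 290 and 317 in the WT arrays. Most of this sum came from moody (121 and 122 in mutant, 159 and 158 in WT) and nrv2 (80.2 and 96.4 in mutant, 108 and 141 in WT). The other glial markers, gcm and repo, overlapped between the genotypes, and repo was above the limit on 0 arrays. The glial sum and nSyb were lower in both mutant arrays, as Gr28a was, also with array medians centred or with quantile normalization. As deposited, both mutant arrays were below both WT arrays in 27.7% of the genes above background. Over all genes that share was 19.5% with array medians centred and 21.5% under quantile normalization. The haemocyte marker sum went the other way as deposited, with 59.7 and 54.6 in the mutant arrays and 49.8 and 50.1 in the WT arrays. The sums of the germline, somatic testis, accessory gland, ejaculatory duct, muscle and fat body markers overlapped between the genotypes. The part of any of these sums, or of nSyb, in the Gr28a values was not tested.

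The neighbouring Gr28b, whose products include a warmth receptor, read 4.62 and 6.57 in the mutant arrays and 7.26 and 5.09 in the WT arrays and passed the limit on 1 array. On the other side of Gr28a lies santa-maria, a scavenger receptor gene of carotenoid uptake. It read 90.3 and 88.9 in the mutant arrays and 115 and 142 in the WT arrays, so both mutant arrays were below both WT arrays. That order was found in 27.7% of all genes above background, and a link between santa-maria and Gr28a was not tested.

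Of 12 antennal ionotropic receptors with a probe set, 4 were above the limit on all 4 arrays. Ir76a, part of an antennal receptor for phenylethylamine, read 26.9 and 37.7 in the mutant arrays, against 33.4 and 38.6 in the WT arrays. The genotypes overlapped, with a log2 fold change of -0.11 ± 0.14 (SE, limma, adjusted p = 0.914). Ir41a, a subunit of polyamine-sensing neurons, read 21.5 and 33.3 in the mutant arrays and 24.7 and 27.7 in the WT arrays. Both WT readings fell between the mutant readings, and the log2 fold change was 0.03 ± 0.16 (SE, limma, adjusted p = 0.996).

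Ir93a and Ir40a act together in humidity sensing, where Ir93a serves as a co-receptor and Ir40a is needed in neurons that respond to dry air. Ir93a read 29.6 and 29.5 in the mutant arrays, against 19.9 and 27.2 in the WT arrays. Both mutant arrays were above both WT arrays, but the log2 fold change of 0.21 ± 0.12 (SE, limma, 95% interval -0.11 to 0.53) did not pass the test (adjusted p = 0.777). Ir40a read 11.8 and 15.6 in the mutant arrays and 11.9 and 14.8 in the WT arrays, close to the limit and overlapping, with a log2 fold change of 0.02 ± 0.12 (SE, limma, adjusted p = 0.9996). Ir85a, which belongs to the divergent ionotropic receptors, read 15.6 and 10.95 in the mutant arrays and 10.4 and 10.7 in the WT arrays. Its mutant arrays were above its WT arrays by a narrow margin, and the log2 fold change of 0.14 ± 0.12 (SE, limma, adjusted p = 0.855) did not pass the test.

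**Figure D2:**
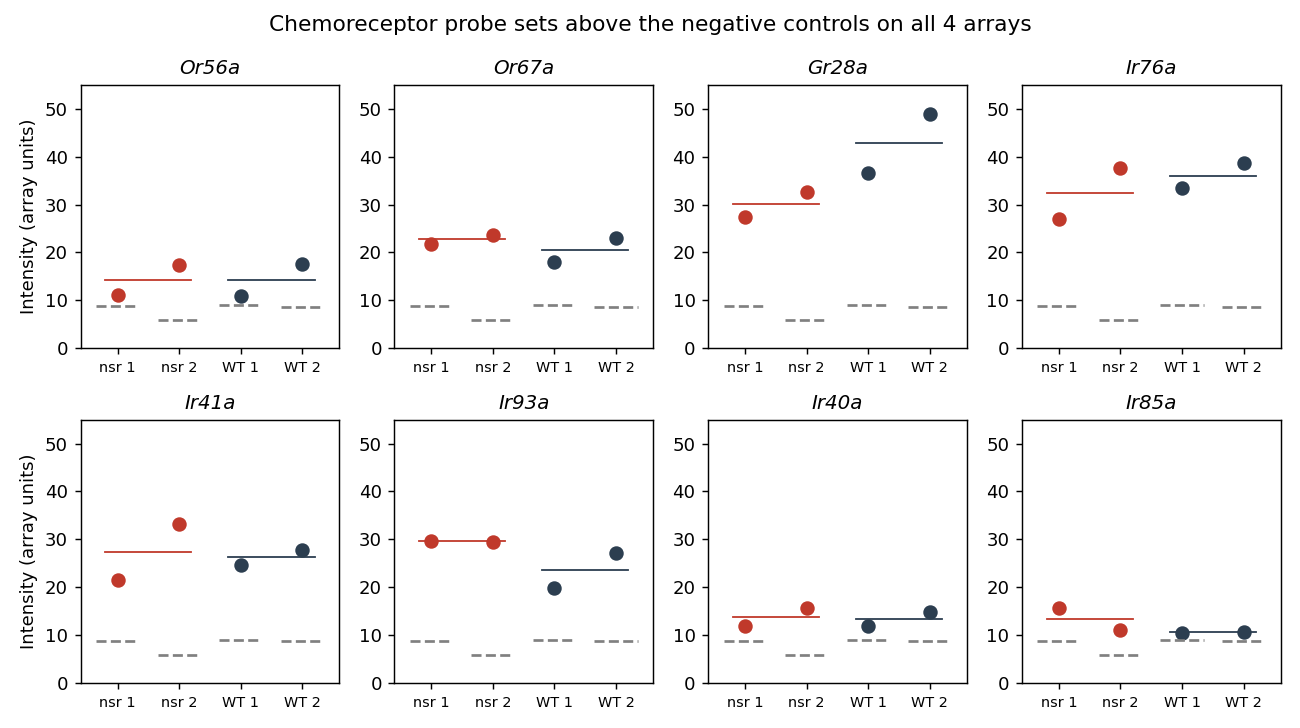
Intensity of the 8 chemoreceptor genes above background on each array (linear axis from 0), nsr mutant arrays in red and WT arrays in dark blue; horizontal lines are genotype means and dashed grey lines the highest negative control of each array. Gr28a is lower and Ir93a and Ir85a are higher in both mutant arrays than in both WT arrays, and the genotypes overlap for the other 5.

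The second array of each genotype read brighter for most of these genes. Of the 8, 6 were higher on the second mutant array than on the first, 8 were higher on the second WT array than on the first, and 6 were higher on both. The median difference, second array minus first, was 0.17 in the mutant and 0.17 in the WT on the log2 scale, and over the 8212 genes above background it was 0.15 in the mutant and 0.18 in the WT. These differences within a genotype were larger than the median log2 fold change between the genotypes, which was 0.02 for the 8 genes and -0.08 for the 8212.

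Several of the sensing genes that the field uses to define these families did not pass the limit on all 4 arrays. The ionotropic co-receptor Ir25a read 7.78 and 10.4 in the mutant arrays and 8.83 and 7.63 in the WT arrays, above the limit on 1 array. It was among the 24 members that passed with the 95th percentile of the negative controls as the limit. Ir8a, the co-receptor of acid-sensing neurons, read 4.42 and 7.16 in the mutant arrays and 4.67 and 8.90 in the WT arrays, above it on 2 arrays. Ir76b, a co-receptor for amines and salt, was below 1.56 on every array. So 0 of the 3 co-receptors were above the limit on all 4 arrays.

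Of the gustatory receptors with textbook roles, none but Gr28a met the rule. Gr21a and Gr63a, which together form the carbon dioxide receptor, were between 2.42 and 5.87 and above the limit on 0 arrays. Of 5 sugar receptors with a probe set of their own, Gr5a, Gr43a and Gr61a were above it on 0 arrays. Gr64a, another sugar receptor, read 9.59 and 4.44 in the mutant arrays and 5.24 and 13.4 in the WT arrays, with the arrays of each genotype far apart. Gr64b to Gr64e have probe sets shared with a neighbour, and none of those 3 sets was above the limit on all 4 arrays. Gr64f, the sugar co-receptor, read 5.55 and 8.44 in the mutant arrays, against 12.0 and 12.2 in the WT arrays. Both mutant arrays were lower and the first was below its limit, but the log2 fold change of -0.29 ± 0.11 (SE, limma) did not pass the test (adjusted p = 0.690).

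Of the 7 bitter receptors, 0 were above the limit on all arrays. Gr66a, the common marker of bitter neurons, read 3.97 and 6.73 in the mutant arrays and 4.18 and 2.08 in the WT arrays. Gr32a, a bitter receptor that also curbs courtship between males, came closest, with 8.58 and 14.003 in the mutant arrays and 11.7 and 13.5 in the WT arrays. Its first mutant array missed the limit of 8.80 and the genotypes overlapped.

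Ir21a, a cool sensor that works with Ir93a, was, like Gr64f, near the limit with separated genotypes. It read 8.59 and 7.40 in the mutant arrays, against 15.2 and 12.6 in the WT arrays, and both mutant arrays were lower. Its log2 fold change was -0.32 ± 0.10 (SE, limma, adjusted p = 0.690). The first mutant array was below the limit, so the size of that difference rests on a reading at background. A second Ir21a probe set read 1.49 and 6.11 in the mutant arrays and 6.46 and 4.20 in the WT arrays. Its genotypes overlapped, and it was above the limit on 1 array. Ir100a read 9.76 and 13.1 in the mutant arrays and 8.80 and 10.9 in the WT arrays, which overlapped.

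**Figure D3:**
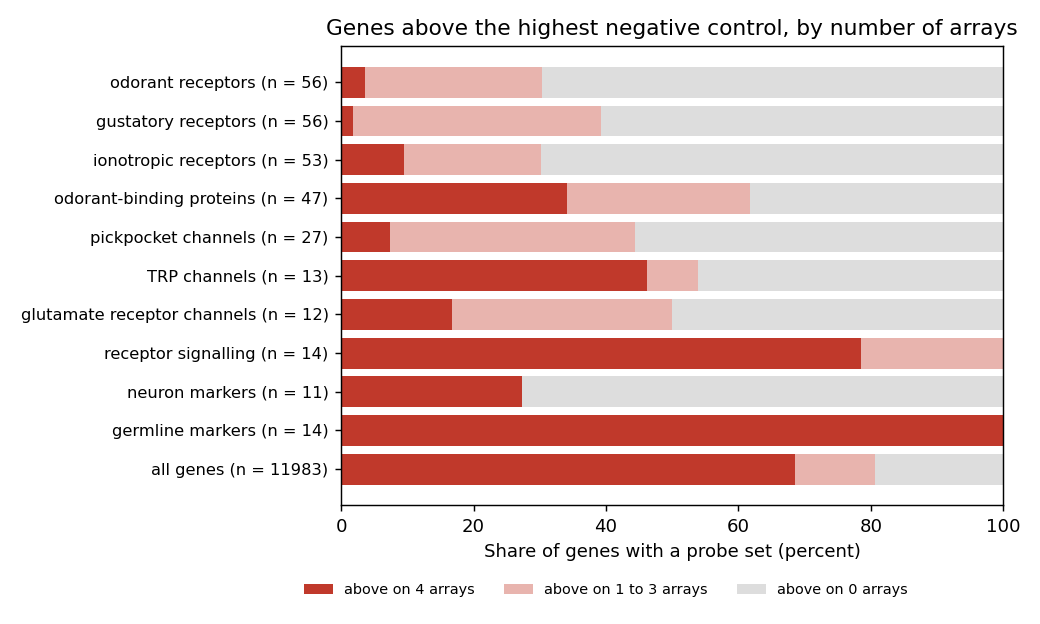
Share of genes with a probe set (percent) that exceeded the highest negative control on each of the 4 arrays (red), on 1 to 3 arrays (pink) or on 0 arrays (grey), for the 3 chemoreceptor families, related gene lists, neuron and germline markers and all genes. The red share is 3.57%, 1.79% and 9.43% in the Or, Gr and Ir families, 34.0% for odorant-binding proteins and 68.5% for all genes.

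Other genes of chemosensation were read more often. Of 47 odorant-binding protein genes, whose products are small secreted carriers of odorants, 16 (34.0%) were above the limit on all 4 arrays. Obp44a read 6161 and 6282 in the mutant arrays and 6278 and 6764 in the WT arrays, and Obp99a read 2997 and 3138 in the mutant arrays and 3120 and 3110 in the WT arrays, far above the limit in both genotypes. Obp99c read 404 and 258 in the mutant arrays and 317 and 379 in the WT arrays, which overlapped. Obp56d, a further member of this carrier family, read 208 and 177 in the mutant arrays, against 306 and 341 in the WT arrays. Its log2 fold change was -0.70 ± 0.12 (SE, limma, adjusted p = 0.690), with both mutant arrays lower but without a call.

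Of the 14 genes of receptor signalling and trafficking, 11 (78.6%) were above the limit on all 4 arrays, among them the G protein subunits Galphas, Galphai and cta and the arrestin Arr1. These proteins serve many receptors beyond the senses. Of 13 TRP channels, 6 (46.2%) passed, including Pkd2, a channel of the sperm tail needed for sperm movement inside the female, and the heat and pain channels pain and pyx. Pkd2 read 90.9 and 93.2 in the mutant arrays and 81.7 and 114 in the WT arrays, so the genotypes overlapped. Of 27 pickpocket sodium channels 2 (7.41%) passed, ppk19 and ppk30, and of 12 ionotropic glutamate receptors outside the Ir family 2 (16.7%) passed, clumsy and GluRIB. The one opsin with a probe set was at background. By limma 0 of the genes of these lists were called at an adjusted p under 0.05. Of those above the limit on all arrays, 2 odorant-binding genes, Obp56d and Obp56e, and 2 signalling genes, Galphaq and Gprk2, had an unadjusted p under 0.05, all lower in the mutant. These 4 of 37 genes (10.8%) were near the 9.18% of all genes above the limit with such a p, and 5606 of those 8212 genes had a log2 fold change below 0.

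Probe sets for the same chemoreceptor did not always give the same answer. Of the 8 genes above background, 3 had further probe sets, and none of those was above the limit on all 4 arrays. The second set for Ir93a read 2.93 and 4.64 in the mutant arrays and 3.598 and 1.33 in the WT arrays, below the limit throughout. For Ir40a the second set also stayed below it on every array. For Ir41a one further set passed on the second mutant array alone, with 10.7, and the other passed on 0 arrays. For these 3 genes the call therefore rested on 1 of their probe sets, and which transcripts or exons each set covers was not analysed here. Of all 165 members, 12 had more than 1 probe set.

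Where the genes lie bears on what a probe set could have read. By chromosome arm, 2 of 31 members on 2L, 2 of 45 on 2R, 2 of 28 on 3L, 2 of 40 on 3R and 0 of 21 on the X passed the limit on all 4 arrays. In the gene table, Ir85a overlaps Pif1A, a gene that read 135 and 201 in the mutant arrays and 148 and 195 in the WT arrays. Ir76a overlaps CG14102, which read 32.5 and 32.1 in the mutant arrays and 26.3 and 33.4 in the WT arrays. For both receptors, signal from the overlapping gene cannot be told apart from their own without the probe positions, and the Ir76a probe set is moreover of the type whose probes can match several genes. Ir93a adjoins RpS30, a ribosomal protein gene, which read between 2219 and 2398 over the 4 arrays.

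The members were also counted by what they overlap. Of 19 members that overlap a gene above the limit on all 4 arrays, 2 passed, and of the other 146, 6 passed. With adjoining genes counted too, 4 of 93 members beside or over such a gene passed, and 4 of the other 72. Ir41a, Ir40a, Or67a and Or56a had no neighbour above the limit on all 4 arrays among those with a probe set. Separately, 1 probe set shared by COX6AL2 and Ir75d read 381 and 420 in the mutant arrays and 460 and 542 in the WT arrays. COX6AL2 encodes a subunit of cytochrome c oxidase, and the set cannot be assigned to the receptor.

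Between nsr mutant and WT testes, 0 of the 165 chemoreceptor genes were called by limma at an adjusted p under 0.05, against 0.00533% of all probe sets. At an unadjusted p under 0.05 there were 10 members (6.06%), 8 lower and 2 higher in the mutant, against 7.13% of all probe sets. None of the 10 was among the 8 genes above background on all arrays, and 6 of them, Ir7g, Ir60a, Gr94a, Or45a, Gr98b and Or71a, were above the limit on 0 arrays. The other 4 were Ir21a, Ir94b, Or94b and Gr64f. The share of members at this level was thus close to the background share.

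**Figure D4:**
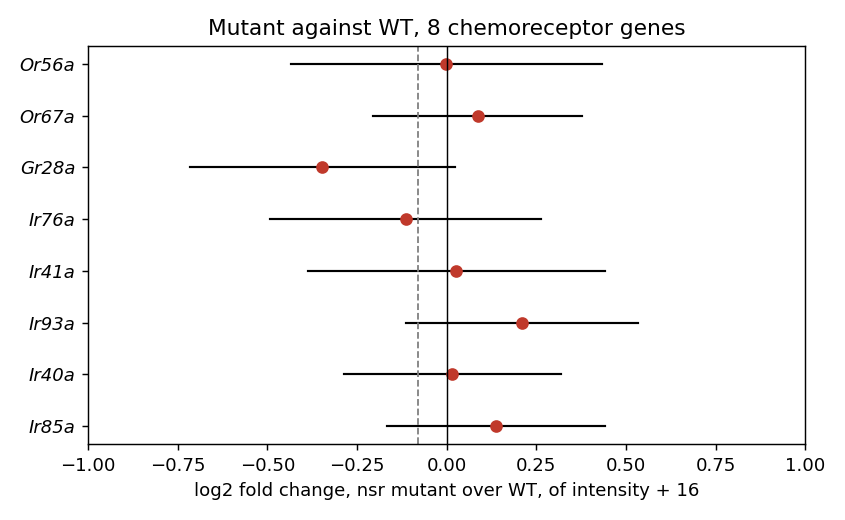
Log2 fold change, nsr mutant over WT, of intensity + 16 for the 8 chemoreceptor genes above background, with the 95% interval of the limma fit (bars); the dashed line is the median of the 8212 genes above background, -0.08. All 8 intervals include 0, and Gr28a lies lowest at -0.35.

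Counted by order alone, both mutant arrays were below both WT arrays in 44 of 165 members (26.7%), against 26.4% of all genes, and above them in 14 members (8.48%), against 9.15% of all genes. Over the genes above background on all 4 arrays those shares were 27.7% and 7.79%, and of the 8 receptors 1 was lower (Gr28a) and 2 were higher (Ir93a and Ir85a). The shares of the 165 members were near those of all genes. The split turned with the scaling. With array medians centred, 22 members (13.3%) were lower and 44 (26.7%) higher, against 19.5% and 21.8% of all genes. With quantile normalization, 37 members (22.4%) were lower and 26 (15.8%) higher, against 21.5% and 22.8% of all genes. Gr28a stayed lower and Ir93a stayed higher in both mutant arrays under each of these scalings, Ir85a lost its separation under quantile normalization, and Or67a and Ir40a became separated upward under both.

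The median log2 fold change of the 8 receptors was 0.02, and between -0.11 and 0.12 when 1 array was left out, with single values from -0.35 to 0.21, while the median over the 8212 genes above background was -0.08. Since 16 was added to intensities of between 10.4 and 48.9, these fold changes understate the ratio of the readings. With 2 arrays per genotype and standard errors from 0.11 to 0.17, all 8 intervals included 0, and a difference of the size seen for Gr28a was not detectable by this test.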

How the data were processed

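Testis RNA of nsr mutant and WT males was read on 4 one-colour Affymetrix Drosophila Genome 2.0 arrays. The authors deposited linear intensity values per probe set, and how these were summarised and scaled was not stated in the labels or methods. The table held 18952 probe sets, of which 183 were Affymetrix controls. Probe sets were named from the platform annotation and updated through the RefSeq gene table (Release 6 assembly), where 13544 of 13647 single-gene probe sets matched; the files name no genome build, so no coordinates are given. Levels of different probe sets are not comparable as amounts of transcript. They were ordered to pick a probe set for each gene and to choose list genes to name, and members were placed by their ratio to the limit. Marker sums add such levels and were compared only between arrays. The members and gene lists were chosen with earlier results of these data known, and the genes to name were every member above background, textbook co-receptors and sugar, carbon dioxide and bitter receptors, the members nearest the limit, members with discordant probe sets and up to 4 genes of each related list.

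Mutant was compared with WT on log2(intensity + 16) with limma 3.58.1 (R 4.3.3, lmFit and eBayes, two-sided), adjusted by Benjamini-Hochberg over 18769 probe sets. The fit was run on simulated data with large changes in the brighter probe sets, which does not test small changes near background. The study's methods name SAM, which was not run here. Alternatives were other limits, pseudocounts of 1 and 64, 2 scalings, a filter, a replicate block and leaving out each array. Markers of fat body, haemocytes, muscle and ejaculatory duct passed the limit on all arrays in 3 of 6, 2 of 6, 7 of 7 and 2 of 3 genes.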

Additional observations from a re-analysis of the deposited data

How the results depend on the processing

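The number of chemoreceptor genes above background on all 4 arrays was 8 as reported, 24 with the 95th percentile of the negative controls as the limit, 5 with the limit doubled, and 5 when foreign control sequences were included in the limit, an alternative chosen after seeing the data. It was also 8 under quantile normalization and with array annotation symbols alone, but neither alternative could change it. Quantile normalization keeps the order of readings within an array, controls included, and the annotation symbols gave the same 165 members. With every single-gene probe set counted it was 8, and there the number could only stay or rise. Members called numbered 0 under all alternatives run. Over all probe sets, 1 was called as reported, 0 with a pseudocount of 1, 111 with array medians centred, 3 under quantile normalization and 117 with probe sets at background left out, and leaving out 1 array gave 0 calls each time. The causes were not tested. The numbers in the labels are not said to pair arrays, and same-numbered arrays deviated together with r = 0.15. With a replicate block 2 probe sets were called, none a member.

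Members with both mutant arrays below both WT arrays numbered 44 as reported and 22 with array medians centred. Those above numbered 14 as reported, 44 with medians centred and 26 under quantile normalization. The median log2 fold change of the 8 genes was 0.02 as reported and changed sign with single arrays left out. It was 0.11 without the first mutant array, -0.11 without the second, -0.039 without the first WT array and 0.12 without the second, each within the spread between arrays. Of 80 values for the 8 single genes, 69 kept their direction and 11 reversed, none called. Or56a, whose value was -0.0004, read 0.0004 with a pseudocount of 1, 0.071 with medians centred and 0.075 under quantile normalization. Leaving out 1 array gave -0.16 to 0.16 for Or56a, -0.28 to 0.048 for Ir76a, -0.17 to 0.22 for Ir41a, -0.012 to 0.18 for Or67a and -0.075 to 0.11 for Ir40a. Of the genes with separated genotypes, Gr28a read -0.50 to -0.20 (lowest in size without the second WT array), Ir93a 0.077 (without the first WT array) to 0.34 and Ir85a 0.022 (without the first mutant array) to 0.25. With 2 arrays per genotype, a fit that lacks 1 array assumes that the lone array varies like the other genotype. Array number and nearness to background limit what could be read.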
